A study of Mus musculus with 12 samples.

Results

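The 7 genes described here encode contents and membrane proteins of cytotoxic granules: Gzma, Gzmb, Gzmk, Prf1, Nkg7, Srgn and Ctsw. They were chosen by name, as the rows of the authors' deposited result table whose gene symbol equals one of these, and all 7 of them were found among 55401 genes. Their messenger RNA was measured by bulk sequencing of polyadenylated RNA from 12 libraries of sorted splenic CD4 T cells. The spleens were taken from C57BL/6 mice 21 days after Leishmania donovani, a protozoan that causes visceral leishmaniasis, was given, and no uninfected or untreated group was analysed here. The first population, called TLCP, comprised CD4 T cells that were CXCR5+ and LAG-3+ with a PD-1lo/int phenotype (6 libraries). The second was CXCR5+ PD-1hi T follicular helper (Tfh) cells, which the series description calls mostly germinal center Tfh cells (6 libraries). Both are mixtures of cells taken through a gate, so fewer cells with a transcript and less of that transcript per cell cannot be told apart. The comparison asks how far TLCP differ from Tfh cells, with which they share surface markers.

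Cytotoxic lymphocytes kill by releasing granules into the contact with a target cell. Perforin opens the target membrane, granzymes enter and cleave substrates that lead to cell death, and the proteoglycan serglycin holds these basic proteins inside the granule. Such genes are best known in CD8 T cells and NK cells, but some CD4 T cells, including type 1 helper and regulatory cells, also transcribe some of them. Germinal center Tfh cells are known for helping B cells and not for killing.

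Library depth ran from 6939770 to 12688306 gene-assigned reads. A total of 3 counts, the limit that a count of 0 allows, corresponds to 0.236 to 0.432 counts per 1e6 assigned reads. Levels are given as CPM, counts per 1e6 reads after TMM scaling between libraries, unless TPM, which is also divided by gene length, is named. T cell transcripts were abundant in both populations, with Cd4 at 725 ± 47.1 CPM (SD, n = 6) in TLCP and 955 ± 47.5 CPM in Tfh. Of 10 T cell reference genes (CD3 chains, Cd4, Trac and signaling genes) 8 were lower in TLCP, 1 higher and 1 did not pass. In the same count test, described below, 16.4% of all genes tested were lower and 16.8% higher. Among the 10 reference genes Cd3d, Trac and Zap70 had log2 fold changes of -0.59, -0.59 and -0.57. When libraries were scaled to the sum of these 10 genes, the median log2 fold change of all genes was 0.37, in place of -0.0041. It was 0.17 with library totals alone and 0.25 on log2(TPM + 1). Differences are therefore given relative to the typical gene. On log2(TPM + 1) none of Cd3d, Trac, Zap70 and Cd4 passed (limma, adjusted p 0.070 to 0.55).

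All 7 granule genes had enough reads to be tested, and 5 rose in TLCP, 1 fell and 1 did not pass (edgeR's quasi-likelihood test, adjusted over 12015 genes, threshold 0.05). Over all genes tested 16.8% rose and 16.4% fell. The median log2 fold change of the 7 was 1.97. The 5 that rose were all at least 2-fold higher, which held with a call for 6.57% of all genes tested. In 4 of the 7, Gzmb, Gzmk, Nkg7 and Ctsw, every TLCP library lay above every Tfh library, which held for 8.3% of all genes. In 1 of the 7, Srgn, every TLCP library lay below every Tfh library, which held for 8.86%. The 5 higher calls held without each of the 12 libraries in turn.

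**Figure D1:**
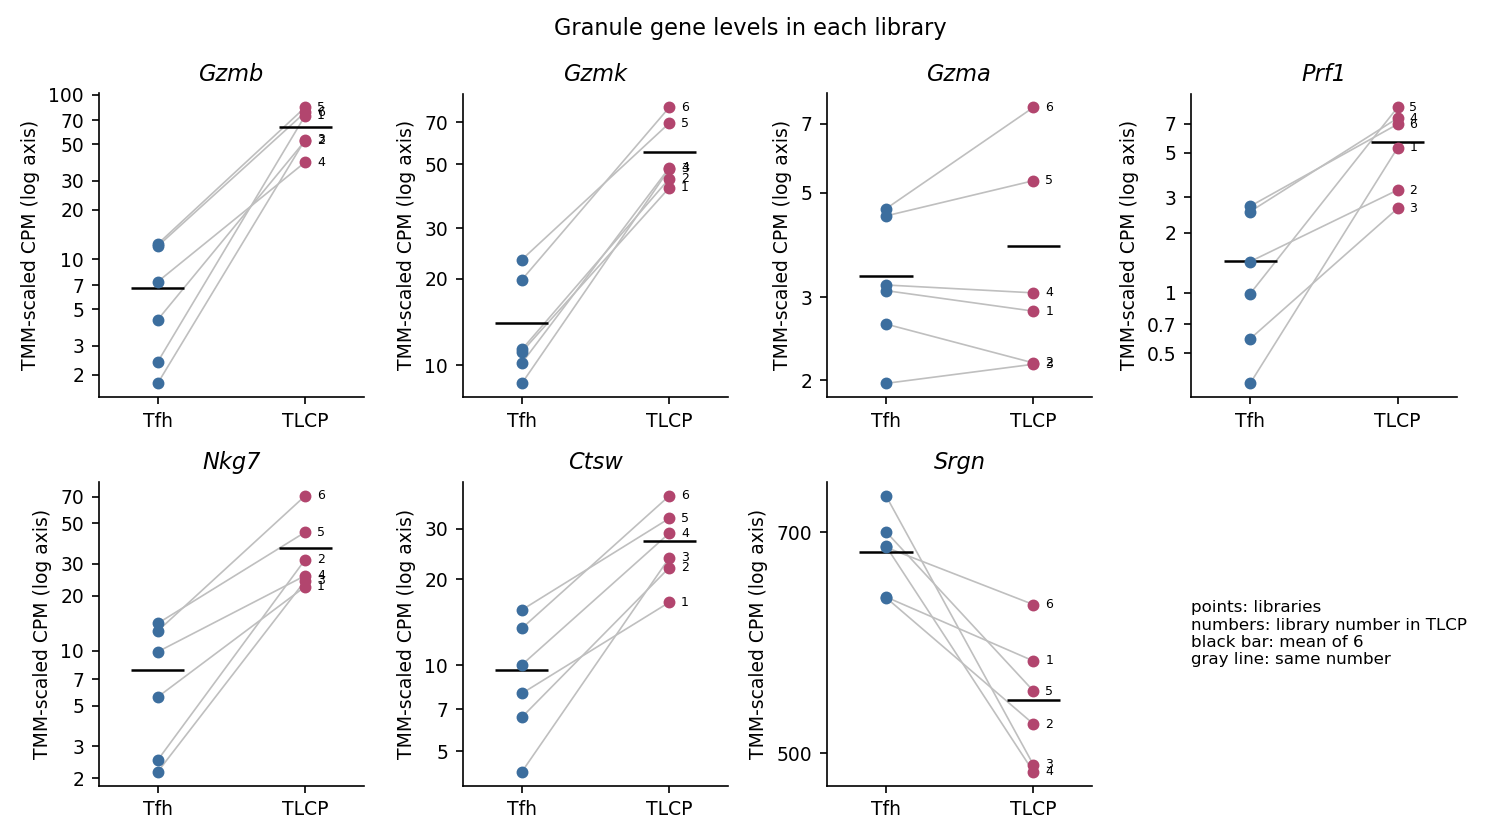
Levels of the 7 granule genes in each library, as TMM-scaled CPM on log axes, with Tfh on the left and TLCP on the right of each panel. Points are libraries, black bars are means of 6 and gray lines join libraries with the same number; Gzmb, Gzmk, Nkg7 and Ctsw do not overlap between populations, Prf1 and Gzma do, and Srgn is lower in every TLCP library.

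Granzyme B had the highest fold change of the 7. Gzmb encodes a serine protease that cleaves after aspartate and activates caspases in the target cell. Its level was lowest at 38.9, median 64.0 and highest at 83.7 CPM in TLCP, and lowest at 1.77, median 5.81 and highest at 12.4 CPM in Tfh. The lowest TLCP library, number 4, lay above the highest Tfh library, number 5. The log2 fold change was 3.25 (SE 0.46, 95% interval 2.24 to 4.27, adjusted p = 0.00031), or 9.52-fold, the 94th highest of 12015 tested genes. Its size varied between libraries, and it was 4.45 in the libraries numbered 1 to 3 alone and 2.62 in those numbered 4 to 6 alone. The Tfh libraries 1 to 3 held 18 to 36 Gzmb reads each, and those numbered 4 to 6 held 46 to 151. In the authors' deposited table the log2 fold change of Gzmb was 3.26 with an adjusted p of 8.6e-11. Gzmb lies at chr14:56258838-56262260 on the minus strand (GRCm38), at one end of a cluster of 7 granzyme genes that spans 144635 bases.

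The other 6 genes of that cluster had few or no counted reads. Gzmd, Gzme, Gzmg and Gzmn had 0 reads in all 12 libraries. Gzmf had 4 reads over the TLCP libraries and 0 over the Tfh libraries. Gzmc had 24 reads over TLCP and 10 over Tfh. Gzmm, on another chromosome, had 73 and 26 reads. None of these 7 other granzymes had enough reads to be tested, so Gzma, Gzmb and Gzmk were the granzymes measured.

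Granzyme K rose as well. Gzmk encodes a trypsin-like serine protease that is found in memory T cells. It was lowest at 41.4, median 48.4 and highest at 78.8 CPM in TLCP, and lowest at 8.66, median 11.3 and highest at 23.3 CPM in Tfh. Libraries 5 and 6 were the highest in both populations, and the populations did not overlap. Its log2 fold change was 1.97 (SE 0.27, adjusted p = 0.0002), or 3.91-fold. The gene lies at chr13:113171608-113225908 on the minus strand in GENCODE M21 and overlaps Esm1 on the opposite strand. Reads were counted by strand, and only 26 reads fell opposite to Gzmk, against 4092 on its own strand, over the 12 libraries.

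Granzyme A, the neighbour of Gzmk, gave no such difference. Gzma encodes a trypsin-like granzyme and lies at chr13:113093825-113100981, 70626 bases from Gzmk with no protein-coding gene in between. It was lowest at 2.16, median 2.93 and highest at 7.59 CPM in TLCP, and lowest at 1.97, median 3.14 and highest at 4.62 CPM in Tfh. Of the 6 numbered pairs, 3 were higher in TLCP, and the ranges overlapped. The log2 fold change was 0.22 (SE 0.33, adjusted p = 0.66) with a 95% interval of -0.48 to 0.91, which does not show that the populations are alike. Without TLCP library 6, which held 84 of the 234 Gzma reads of TLCP, the value was -0.11. These values rest on 18 to 84 reads per library.

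Perforin rose from a low level. Prf1 encodes the pore-forming protein through which granzymes reach the target. It was lowest at 2.64, median 6.13 and highest at 8.44 CPM in TLCP, and lowest at 0.354, median 1.21 and highest at 2.71 CPM in Tfh. All 6 numbered pairs were higher in TLCP, but the highest Tfh library, number 6, lay just above the lowest TLCP library, number 3. The log2 fold change was 1.99 (SE 0.43, adjusted p = 0.0013), or 3.99-fold. It rests on 22 to 86 reads per TLCP library and 4 to 34 reads per Tfh library. Prf1 lies at chr10:61297833-61304680 on the plus strand.

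Both membrane and protease genes beside these also rose. Nkg7 encodes a granule membrane protein that promotes granule release. Its levels ran from 22.5 over a median of 28.8 to 70.9 CPM in TLCP, and from 2.17 over 7.72 to 14.1 CPM in Tfh. The 2 populations did not overlap, and libraries 5 and 6 were again the highest in each. The log2 fold change was 2.23 (SE 0.50, adjusted p = 0.0062), or 4.70-fold, and it was 2.90 in the libraries numbered 1 to 3 alone and 1.92 in those numbered 4 to 6 alone. Nkg7 lies at chr7:43437073-43438249 on the plus strand. Ctsw encodes cathepsin W, a cysteine protease found in cytotoxic lymphocytes. It ran from 16.6 over a median of 26.4 to 39.2 CPM in TLCP, and from 4.23 over 9.0 to 15.6 CPM in Tfh. The gap between the populations was narrow, since TLCP library 1 exceeded Tfh library 5 by less than the SD of either population. The log2 fold change was 1.499 (SE 0.30, adjusted p = 0.0021), or 2.83-fold. Ctsw lies at chr19:5465043-5468507 on the minus strand and overlaps Fibp on the opposite strand.

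Serglycin did not rise with the others. Srgn encodes the proteoglycan core that packs granzymes and perforin, and many blood cells outside the cytotoxic lineages transcribe it. Its levels ran from 486 over a median of 536 to 627 CPM in TLCP, and from 634 over 685 to 740 CPM in Tfh. Every TLCP library lay below every Tfh library after TMM scaling, a log2 difference of -0.33 (SE 0.07, adjusted p = 0.0009), or 1.25-fold lower. The call did not hold under other scalings. It was -0.15 (adjusted p = 0.24) with library totals alone, -0.04 (adjusted p = 0.84) by limma on log2(TPM + 1) and 0.06 (adjusted p = 0.59) when scaled to the T cell reference genes. Under each of these 3 scalings the other 5 calls stayed higher in TLCP. Srgn lies at chr10:62493833-62527451 on the minus strand.

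**Figure D2:**
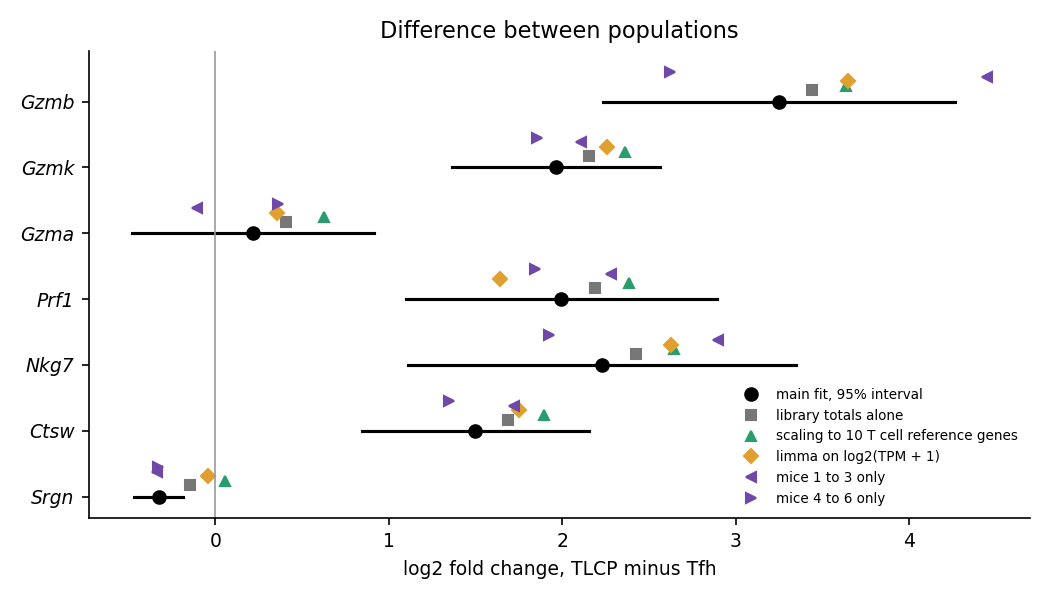
Log2 fold change of each granule gene, TLCP minus Tfh. Black circles with lines are the main fit and its 95% interval, and colored symbols are other scalings and the libraries numbered 1 to 3 or 4 to 6 alone; Gzmb lies highest at 3.25, the interval of Gzma spans 0, and the symbols of Srgn lie on both sides of 0.

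Per gene length the order of the transcripts differed between the populations. In TLCP mean TPM was 650 ± 118 for Srgn (SD, n = 6), 117 ± 38.8 for Gzmb, 107 ± 63.3 for Nkg7, 105 ± 36.0 for Gzmk, 38.2 ± 13.9 for Ctsw, 10.3 ± 6.59 for Gzma and 5.89 ± 2.68 for Prf1. Among neighbours in this order, Gzmb, Nkg7 and Gzmk did not differ beyond their spread, and neither did Gzma and Prf1, although Prf1 was the lowest in every library. In Tfh the means were 666 ± 90.0 TPM for Srgn, 21.4 ± 7.94 for Gzmk, 17.8 ± 10.9 for Nkg7, 10.8 ± 4.23 for Ctsw, 9.57 ± 6.37 for Gzmb, 7.07 ± 2.21 for Gzma and 1.16 ± 0.814 for Prf1. There no neighbours from Gzmk down to Gzma differed beyond their spread, while Srgn stood above them and Prf1 below in every library. Srgn ranked 38th and 29th among 15394 protein-coding genes with any TPM, so it was among the most abundant transcripts of both populations. Gzmb moved from rank 6227 in Tfh to rank 543 in TLCP, and Prf1 stayed low at ranks 10043 and 8171.

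The makeup of the granzyme transcripts also differed. Of the summed TPM of Gzma, Gzmb and Gzmk, Gzmb made up 50.3% ± 6.68 (SD, n = 6, range 41.6% to 61.5%) in TLCP and 23.4% ± 8.80 (13.0% to 32.7%) in Tfh. Gzmk made up 45.5% ± 6.04 and 57.3% ± 6.99, and Gzma 4.15% ± 1.33 and 19.3% ± 3.23. Gzmk was the larger share in each Tfh library, whereas Gzmb was the larger in 4 of 6 TLCP libraries, all but numbers 4 and 6.

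**Figure D3:**
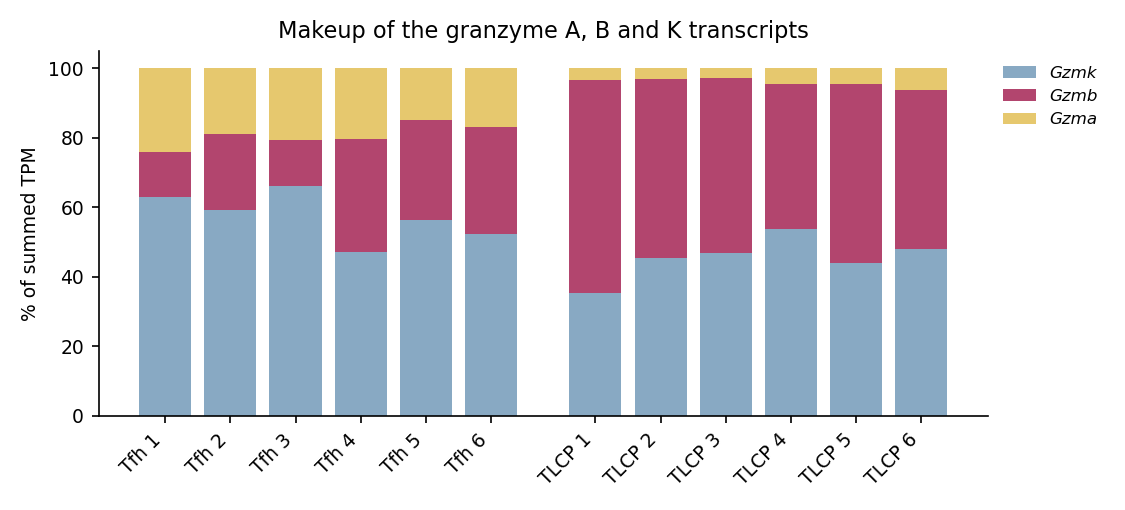
Share of Gzmk, Gzmb and Gzma in their summed TPM, in percent, one bar per library. Gzmb makes up 13.0% to 32.7% in the Tfh libraries and 41.6% to 61.5% in the TLCP libraries.

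A ratio of 2 genes within a library does not depend on scaling between libraries, and 21 such ratios of TPM were compared by an exact permutation test over libraries (2-sided, smallest p possible 0.0022). Of these, 16 differed between populations after Benjamini and Hochberg adjustment. The ratios share genes and are not independent. The log2 ratio of Gzmb to Gzmk was 0.15 ± 0.39 (SD, n = 6) in TLCP and -1.38 ± 0.77 in Tfh, a 2.89-fold difference (exact p = 0.0022, adjusted p = 0.0038). The ratio of Gzmb to Srgn differed by 14.8-fold, that of Gzmk to Srgn by 5.12-fold and that of Nkg7 to Srgn by 6.85-fold (each with an exact p of 0.0022, adjusted 0.0038). The log2 ratio of Gzma to Gzmk was -3.50 ± 0.41 in TLCP and -1.58 ± 0.25 in Tfh (exact p = 0.0022, adjusted p = 0.0038), with no overlap between the populations. The ratio of Gzma to Srgn (log2 difference 0.43, exact p = 0.23) did not pass. Nor did the ratios of Gzmk to Prf1 (-0.18, exact p = 0.72), Gzmk to Nkg7 (-0.42, exact p = 0.30), Prf1 to Nkg7 (-0.24, exact p = 0.69) and Prf1 to Ctsw (0.64, exact p = 0.22), which does not show that these pairs changed alike.

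The libraries of a population also varied among themselves. The coefficient of variation over the 6 TLCP libraries was 56.3% for Gzma, 50.8% for Nkg7, 41.4% for Prf1, 29.8% for Ctsw, 27.9% for Gzmb, 27.6% for Gzmk and 9.94% for Srgn. In Tfh it was 69.9% for Gzmb, 69.1% for Prf1, 66.0% for Nkg7 and 5.99% for Srgn. Libraries 5 and 6 were the 2 highest in both populations for Gzma, Gzmb, Gzmk, Nkg7 and Ctsw, but not for Prf1 or Srgn. Levels of same-numbered libraries were compared across the 6 numbers on a log2 scale, 7 relations in all. For Gzma Pearson's r was 0.92 (exact permutation p = 0.0028, adjusted 0.019) and Spearman's rho 1.0 (exact permutation p = 0.0028, adjusted 0.019). Without numbers 5 and 6, the farthest from the median, r was 0.84. None of the other 6 relations passed (adjusted exact permutation p of Pearson's r 0.33 to 0.55), and for Gzmk r was 0.87 with all numbers but -0.72 without numbers 5 and 6. With the library number as a block all 5 higher calls and the lower call of Srgn remained.

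Promoter windows of the granule genes are shown because 4 of these 5 genes rose together and Gzma, beside Gzmk, did not. RefSeq windows on GRCm38.p6, from 250 bases before to 50 after the transcription start, matched 6 of the 7 genes, with 7 windows. Capitals mark matches, on either strand, to TGTGGT (the core bound by RUNX factors), GGTGTGA (T-box factors), TGANTCA (AP-1) and TTCNNNGAA (STAT factors). TGACGTCA (a cyclic AMP response element) was also searched and not matched in these windows, and no marked matches overlapped.
Gzmb, chr14:56262285-56262584, minus strand: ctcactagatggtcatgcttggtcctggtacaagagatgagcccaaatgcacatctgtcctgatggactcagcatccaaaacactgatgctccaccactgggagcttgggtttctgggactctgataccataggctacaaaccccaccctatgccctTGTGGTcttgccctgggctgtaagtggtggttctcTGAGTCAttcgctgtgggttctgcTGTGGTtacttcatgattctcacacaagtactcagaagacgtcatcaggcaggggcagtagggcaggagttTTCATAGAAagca
Nkg7, chr7:43436888-43437187, plus strand: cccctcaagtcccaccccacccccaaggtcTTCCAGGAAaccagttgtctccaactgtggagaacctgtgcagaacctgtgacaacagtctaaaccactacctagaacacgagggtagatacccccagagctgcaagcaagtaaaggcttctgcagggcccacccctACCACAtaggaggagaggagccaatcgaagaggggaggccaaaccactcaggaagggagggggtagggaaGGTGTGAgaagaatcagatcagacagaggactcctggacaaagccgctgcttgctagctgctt
Prf1, chr10:61297586-61297885, plus strand: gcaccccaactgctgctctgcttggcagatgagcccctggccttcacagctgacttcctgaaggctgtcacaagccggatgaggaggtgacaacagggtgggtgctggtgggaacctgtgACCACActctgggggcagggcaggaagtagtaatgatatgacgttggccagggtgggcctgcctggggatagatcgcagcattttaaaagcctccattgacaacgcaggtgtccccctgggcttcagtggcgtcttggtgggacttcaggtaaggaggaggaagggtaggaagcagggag
Gzmk, chr13:113180916-113181215, minus strand: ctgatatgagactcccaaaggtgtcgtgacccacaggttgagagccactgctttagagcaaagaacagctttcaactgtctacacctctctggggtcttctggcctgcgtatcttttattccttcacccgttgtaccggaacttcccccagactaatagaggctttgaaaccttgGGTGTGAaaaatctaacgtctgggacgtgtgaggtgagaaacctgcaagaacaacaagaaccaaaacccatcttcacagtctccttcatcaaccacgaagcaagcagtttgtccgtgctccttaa
Gzma, chr13:113100932-113101231, minus strand: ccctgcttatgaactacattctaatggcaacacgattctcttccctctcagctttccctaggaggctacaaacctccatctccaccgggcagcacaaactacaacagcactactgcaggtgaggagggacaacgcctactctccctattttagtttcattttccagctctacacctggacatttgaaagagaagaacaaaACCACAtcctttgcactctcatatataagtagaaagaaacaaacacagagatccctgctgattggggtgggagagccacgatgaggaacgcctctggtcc

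Among these sequences TGTGGT occurred in the windows of Gzmb, at 93 and 34 bases before the start, and of Nkg7, Prf1 and Gzma, at 83, 130 and 50 bases before it on the opposite strand. Of 32817 windows of the same length over the genome 16.8% held it. GGTGTGA occurred in Nkg7, 13 bases before the start, and in Gzmk, 75 bases before it, and in 3.98% of all windows. The Gzmb window also held TGAGTCA 58 bases before the start, a match to TGANTCA, which 7.81% of all windows held. TTCNNNGAA occurred in Gzmb and Nkg7 and in 8.29% of all windows. Of the 2 Srgn windows, 1 held TGTGGT and the other none of these motifs. RefSeq and GENCODE starts differ for some of these genes. The RefSeq starts of Gzmk and Nkg7 lie inside the GENCODE spans given above, and the Gzmb window lies wholly before the GENCODE start of Gzmb. Distances to the start are those of RefSeq and depend on the annotation. A match says only that these letters are present, and binding was not measured here.

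Transcription factors known to promote granule genes in cytotoxic lymphocytes were mostly higher in TLCP. Of 10 such genes, all tested, 9 rose and 1 fell, where 16.8% of all genes tested rose and 16.4% fell. Their median log2 fold change was 1.54, against -0.0041 over all genes tested. In the libraries numbered 4 to 6 alone 7 rose, and Bhlhe40 (adjusted p = 0.054) and Zfp683 (adjusted p = 0.059) did not pass. This list, like those below, was chosen with earlier results on these libraries known. Prdm1, which encodes Blimp-1, rose from 17.6 ± 6.04 to 108 ± 14.3 CPM (log2 difference 2.63, SE 0.20, adjusted p = 5.0e-07). Runx3 differed by 1.81 on the log2 scale (SE 0.13). Stat4, which acts downstream of interleukin-12, was the one that fell (-0.81, SE 0.07). Of 5 factors of the follicular or memory program 4 fell and 1 rose. Bcl6, the lineage factor of Tfh cells and a repressor of Prdm1, fell from 229 ± 35.6 to 51.0 ± 11.4 CPM (log2 difference -2.17, SE 0.15). Id3 fell by 1.72 on the log2 scale, and Bach2, a repressor that restrains effector differentiation, was the one that rose (1.73, SE 0.17). With library totals alone, scaled to the T cell reference genes and on log2(TPM + 1), 3 of the 5 fell, since Lef1 (-0.23, adjusted p = 0.019) was -0.07, 0.14 and 0.05 there and did not pass.

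Other effector molecules rose with the granule genes. Of 8 killing ligands and effector receptors or chemokines, 7 were tested, 6 rose, 0 fell and 1 did not pass, where 16.8% of all genes tested rose and 16.4% fell. Ccl4 had too few reads. Tnfsf10, the death ligand TRAIL, rose from 36.7 ± 2.96 to 53.7 ± 6.72 CPM (log2 difference 0.55, SE 0.09). Slamf7, a receptor on cytotoxic lymphocytes and plasma cells, differed by 1.85 on the log2 scale (SE 0.25). Ccl3, a chemokine of activated T cells and myeloid cells, differed by 2.61 (SE 0.63, adjusted p = 0.0032). In the libraries numbered 4 to 6 alone 3 of these genes rose, and Ccl3 did not pass (1.77, adjusted p = 0.16).

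The genes that mature and release granules did not follow a single direction. Of 10 maturation genes 9 were tested, 4 rose, 3 fell and 2 did not pass, with a median log2 fold change of 0.04. Scaled to the T cell reference genes 6 of them rose and 2 fell. Lamp2, called lower in the main fit (-0.36), did not pass with that scaling (adjusted p = 0.92). Nor did it pass with library totals alone (adjusted p = 0.15) or by limma on log2(TPM + 1) (adjusted p = 0.73). Ctsc, the dipeptidyl peptidase that activates progranzymes, rose from 63.9 ± 5.10 to 102 ± 18.5 CPM (log2 difference 0.67, SE 0.10, adjusted p = 2.3e-05). Ctsl, a lysosomal cysteine protease, fell from 33.9 ± 5.04 to 4.79 ± 1.54 CPM (log2 difference -2.81, SE 0.19). Lamp1, a lysosome membrane protein that reaches the surface when granules are released, fell by 0.94 on the log2 scale. The release list of 17 had 16 genes in the files, of which 15 were tested, 2 rose, 6 fell and 7 did not pass, beside 16.8% and 16.4% of all genes tested. Rab27a, the GTPase that docks granules, fell from 176 ± 18.7 to 105 ± 12.002 CPM (log2 difference -0.75, SE 0.08). Stx11, a membrane fusion protein, fell by 1.54 and Ap3b1, an adaptor subunit, by 0.52 on the log2 scale. These counts depended on the scaling. With library totals alone 3 rose and 3 fell, and scaled to the T cell reference genes 7 rose and 2 fell, where Rab27a (-0.37) and Stx11 (-1.15) stayed lower and Ap3b1 (-0.13, adjusted p = 0.16) did not pass. On log2(TPM + 1) 3 rose and 2 fell, and Ap3b1 did not pass there either (-0.23, adjusted p = 0.17).

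Inhibitors of granule proteases and enzymes of the serglycin sugar chains gave calls in both directions, and 33.2% of all genes tested were called in either direction. Of 5 inhibitors of granule proteases 4 were tested, 1 rose, 1 fell and 2 did not pass, and Serpinb9b had too few reads. Serpina3g, an inhibitor of lysosomal cathepsins in the mouse, rose from 14.5 ± 4.12 to 61.4 ± 19.0 CPM (log2 difference 2.09, SE 0.24, adjusted p = 3.4e-05). Serpinb6a, which belongs to a family of intracellular serpins, fell by 0.57 (adjusted p = 0.0059, but 0.33 when scaled to the T cell reference genes and 0.25 on log2(TPM + 1)), and Serpinb6b differed by -0.13 on the log2 scale (adjusted p = 0.39), which was positive under the 3 other scalings. Of 12 enzymes of glycosaminoglycan chain synthesis, all tested, 3 rose, 1 fell and 8 did not pass, and 6 rose with library totals alone. Chst11, a chondroitin sulfotransferase, differed by 1.35 on the log2 scale (SE 0.32) and B3gat3, which completes the linker of the chain, by 0.43 (SE 0.10). Xylt2, which starts the chain, fell by 0.64 (SE 0.11), but was -0.32 (adjusted p = 0.10) on log2(TPM + 1). Chst11 did not pass in the libraries numbered 4 to 6 alone (adjusted p = 0.095), nor B3gat3 in those numbered 1 to 3 alone (adjusted p = 0.12).

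**Figure D4:**
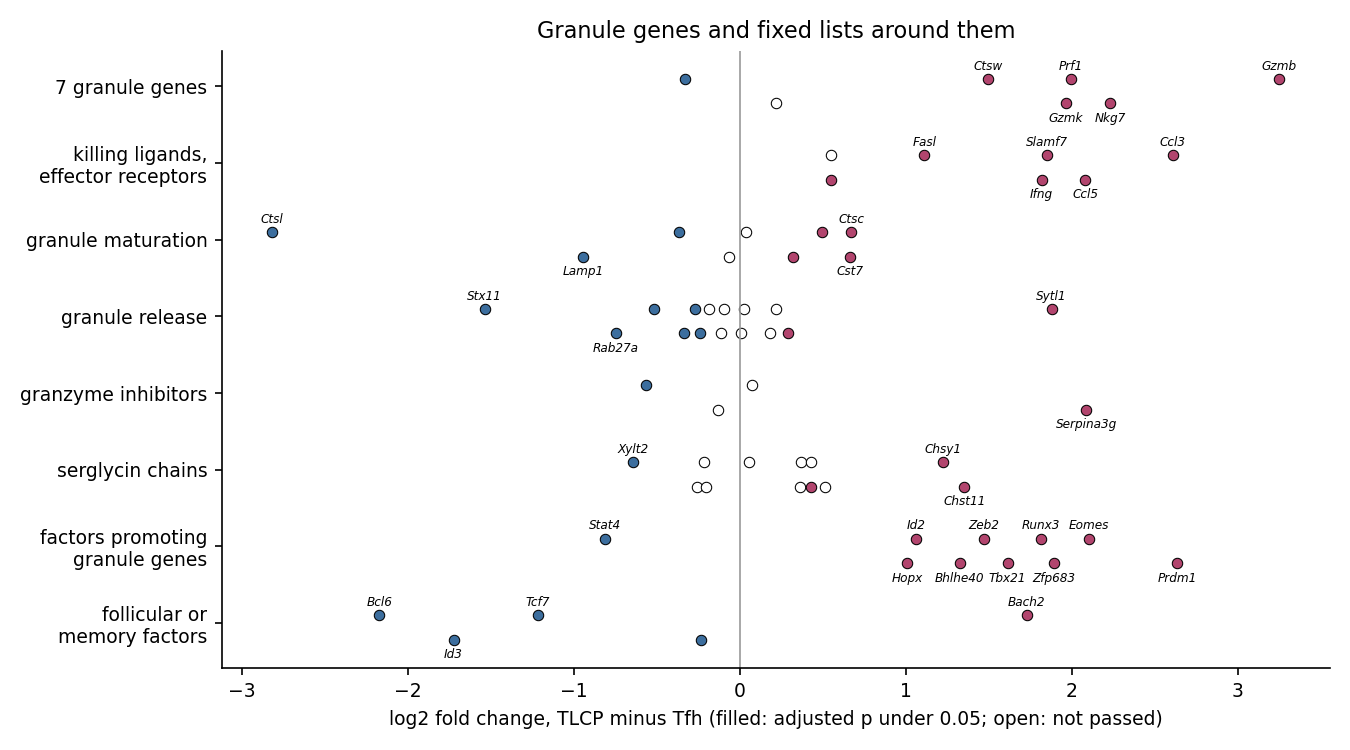
Log2 fold change, TLCP minus Tfh, of the granule genes and of the tested members of 7 lists around them, one row per list. Filled points had an adjusted p under 0.05 and open points did not; the factors promoting granule genes lie mostly on the right (9 of 10), those of the follicular or memory program mostly on the left (4 of 5), and the release genes on both sides of 0.

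For 6 of the granule genes the gene with the most similar course over the 12 libraries was found by the root mean square difference of log2 CPM centred on each gene, leaving out the 7 genes. It was Ccl5, a chemokine of effector T cells, for Nkg7 (0.33), Tbx21, the lineage factor of type 1 helper cells, for Ctsw (0.25) and Hip1 for Gzmk (0.16). For Prf1 it was Tmem163 (0.46), for Gzma Tlnrd1 (0.29) and for Srgn Tmsb4x (0.063), which encodes an actin-binding peptide. Mean Ccl5 was 33.7 ± 14.4 in TLCP and 7.97 ± 5.21 CPM in Tfh. Among the granule genes themselves the nearest pair was Gzmk and Ctsw, at 0.33. Of the genes compared outside the 7, 14 lay nearer to Gzmk than Ctsw did, and 20 lay nearer to Ctsw than Gzmk did.

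Transcripts of other cells that carry granule genes were measured in the same libraries. The 2 CD8 genes summed to 5.595 to 17.6 CPM in TLCP and 3.35 to 9.64 CPM in Tfh, and neither Cd8a (adjusted p = 0.081) nor Cd8b1 (adjusted p = 0.98) passed. With the library number as a block Cd8a was higher in TLCP (log2 difference 1.81, adjusted p = 0.0054), as it was when scaled to the T cell reference genes (2.195, adjusted p = 0.029). The highest sum, 17.6 CPM, was in TLCP library 6, which was also highest in Gzma, Gzmk, Nkg7 and Ctsw. The lowest of the TLCP sums was in library 5, which was highest in Gzmb. Without TLCP library 6 the log2 fold changes were 3.18 for Gzmb, 1.83 for Gzmk, 1.92 for Nkg7, 1.92 for Prf1 and 1.36 for Ctsw, and all 5 remained called. The 7 NK cell genes summed to 3.70 to 7.25 CPM in TLCP and 7.80 to 16.7 CPM in Tfh. Of these, 1 was tested and fell, Klrb1c (4.22 ± 1.06 against 11.6 ± 3.17 CPM), and Ncr1, a defining NK receptor, averaged 0.53 ± 0.49 in TLCP and 0.17 ± 0.25 CPM in Tfh. Most reads of this list were Klrb1c, 245 over TLCP and 670 over Tfh, so the sums mainly follow that gene. Ncr1 (32 reads over TLCP and 8 over Tfh) and Klri2 (23 and 2) went the other way. Klra4, Klra7, Klra8 and Klre1 had at most 7 reads in each population, where reads that mapped to more than 1 place were not counted. Of the gamma delta and NKT list 2 of 5 genes were measured, and neither passed, although Zbtb16 was called higher when scaled to the T cell reference genes (1.14, adjusted p = 0.046), with Trdc at 7.35 ± 2.89 and 5.34 ± 3.48 CPM.

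Transcripts of cells outside the T lineage, and of regulatory T cells, were also measured. For the counts of calls below, 16.8% of all genes tested rose and 16.4% fell. Of 8 basophil and mast cell genes 6 were tested and 6 rose, and their sum was 28.3 to 101 CPM in TLCP and 0.359 to 7.64 CPM in Tfh, led by Mcpt8. Of 5 plasma cell genes 4 were tested and 4 rose, with sums of 561 to 3063 and 28.5 to 167 CPM, led by Jchain. Of 6 B cell genes 4 rose and 2 did not pass, with sums of 404 to 1618 and 254 to 573 CPM. Cd22 had the highest mean over the 12 libraries and did not pass (adjusted p = 0.51), and Ms4a1 was the most abundant in TLCP, at 219 CPM. The highest B cell sum was in TLCP library 6 and the highest plasma cell sum in TLCP library 5, the libraries that were highest in several granule genes. The lists did not share 1 order of libraries. TLCP library 6 had a plasma cell sum of 1031 CPM, and TLCP library 5 had a B cell sum of 780 CPM. The basophil and mast cell sum was highest in TLCP library 3, at 101 CPM, and was 51.1 and 33.2 CPM in TLCP libraries 5 and 6. Of 8 myeloid genes 6 were tested and 1 rose, with sums of 33.2 to 111 and 17.7 to 108 CPM, led by Lyz2. None of the 4 plasmacytoid dendritic cell genes had enough reads to be tested. Their sums were 0 to 6.54 CPM in TLCP and 0 to 0.0985 CPM in Tfh, led by Siglech, and Cd209d had 0 reads in all 12 libraries. Among 3 regulatory T cell genes 2 rose and 1 fell. Mean Foxp3 was 84.4 ± 9.0 in TLCP and 32.6 ± 7.78 CPM in Tfh, whereas Ikzf2, the most abundant of the 3, was 428 ± 76.3 and 739 ± 98.2 CPM. The part of these cells, or of CD8 T, NK, gamma delta and NKT cells, in the levels of the granule genes was not tested.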

How the data were processed

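The submitters' processing notes name DESeq2 1.30.1, STAR 2.7.1a, bcl2fastq 2.20 and mouse build GRCm38, and no annotation release. The authors deposited raw read counts per gene (STAR layout), of which the column on the gene's strand was used. Classes that name no gene held 44.9% to 56.4% of all reads and stayed out. The authors' deposited table holds log2 fold changes, a test score and p-values of DESeq2, and a normalized signal. Dividing out its size factors gave back whole reads for 100% of values (tolerance 0.01 reads), equal to the stranded counts, and a refit on these called 3983 genes. The authors also deposited TPM, with gene lengths that no source used here states.

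The count test was run with edgeR 4.0.16 under R 4.3.3: filterByExpr, TMM scaling and the robust quasi-likelihood test (2-sided) with Benjamini and Hochberg adjustment over 12015 genes, threshold 0.05. SE was derived from the fold change and its F statistic (|log2 fold change| over root F). Alternatives used limma 3.58.1 and DESeq2 1.42.0. The method was tested on simulated data. Nothing in the labels says that libraries came from separate cultures or pools, and p-values measure the spread between libraries. The series description gives 6 mice and libraries are numbered 1 to 6 in each population. Deviations of same-numbered libraries correlated at 0.127 to 0.318 and those of other numbers at -0.247 to 0.209. Each same-number value was over 0.1, but the 2 ranges overlap, so they do not settle whether equal numbers pair libraries. The labels do not state a pairing either. The main fit took the libraries as unpaired, and a block on the number was run as an alternative. Gene names are those of the files. Named beyond the 7 genes are the 3 smallest-p genes of each list around them, the most similar gene (that of Gzmb is not reported here), and the most abundant gene of each other cell's list, plus some added after their values were seen (Cd4, Ncr1, Cd8a, Foxp3). The members and lists were chosen with earlier results of these data known. Floors cover counting error only, and intervals of fold changes include the spread between libraries.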

Additional observations from a re-analysis of the deposited data

How the results depend on the processing

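Over the alternatives run (RLE factors, library totals alone, scaling to the T cell reference genes, DESeq2, unstranded counts, limma voom, no filter on low counts or one of at least 1 CPM in at least 6 libraries (12149 genes tested), each library left out, the replicate block, libraries numbered 1 to 3 or 4 to 6 alone, 3 fits on TPM values and, chosen after seeing the data, the recovered reads) Gzmb, Gzmk, Prf1, Nkg7 and Ctsw kept their direction and their call, and 5 genes were called higher in each. Srgn was -0.15 with library totals alone, 0.056 scaled to the T cell reference genes, and -0.043 by limma on log2(TPM + 1), with or without a filter, and on log2(TPM + 0.1), and under these 5 alternatives 0 of the 7 genes were called lower in place of 1. Gzma, which did not pass in any, was -0.11 in the libraries numbered 1 to 3 alone, and -0.11 to 0.34 with each library left out. Scaling to the T cell reference genes called 6938 genes in place of 3983, and 91.8% of the calls were higher in place of 50.6%. It was 78.2% with library totals alone and 87.1% on log2(TPM + 1). The cause was not tested. The replicate block, with 4453 genes called, changed no call of the 7 genes but called Cd8a, and its log2 fold change for Gzmb was 3.39. Depth limits Prf1 and Gzma most, at 4 to 86 and 18 to 84 reads per library, and granzymes with too few reads were not tested.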

Other observations

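Tbx21 and the effector cytokines Ccl5 and Ifng were also highest in libraries 5 and 6 of both populations. Tbx21 was 82.7 and 99.6 CPM in TLCP libraries 5 and 6 and 48.7 to 51.9 CPM in the other 4, and it was 28.5 and 27.6 CPM in Tfh libraries 5 and 6 and 14.3 to 23.1 CPM in the other 4. Ccl5 was 49.5 and 54.6 CPM in those TLCP libraries against 22.8 to 27.5 CPM in the others. Ifng was 58.2 and 67.9 CPM there against 22.9 to 39.6 CPM. Eomes, a related T-box factor, was lowest in the same 2 TLCP libraries, at 13.0 and 8.76 CPM, against 16.4 to 25.8 CPM in the others, but not in Tfh, where libraries 5 and 6 had 4.83 and 4.30 CPM and the others 2.86 to 6.21 CPM. In Tfh libraries 5 and 6 Ccl5 was 13.9 and 14.4 CPM and Ifng 16.98 and 20.5 CPM, again above the other 4. These genes were chosen after their values were seen, and no label separates these libraries from the rest.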
